A study of Mus musculus with 13 samples.

Results

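The 3 peroxisome proliferator-activated receptors (Ppara, Pparg, Ppard), 2 of their retinoid X receptor partners (Rxra, Rxrg), the coactivator Ppargc1b, both adiponectin receptors (Adipor1, Adipor2) and 2 direct PPAR target genes (Angptl4, Pdk4) were examined in whole aortas. These 10 genes were taken by their symbols from a table of 54532 genes, and 15811 genes, all 10 among them, passed a filter on low counts. All 13 mice were ApoE-/-, lacking apolipoprotein E, and received angiotensin II (AngII) at 1000 ng/kg/min from a pump under the skin for 28 days from an age of 10 weeks, a treatment that produces abdominal aortic aneurysm. In addition, 6 mice were given an empty adenovirus (Ad-sham) and 7 an adenovirus carrying FLAG-tagged mouse Fam3a (Ad-FAM3A), each by 5 injections into the tail vein. The promoter of the vector is not restricted to a cell type, and each aorta is 1 library, so fewer cells of a type and less RNA per cell cannot be told apart.

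PPARs are nuclear receptors that bind DNA as pairs with a retinoid X receptor and switch on genes when fatty acids or synthetic ligands bind them. PPARα (Ppara) is known for fatty acid oxidation in liver, heart and brown fat, PPARγ (Pparg) for adipocyte differentiation, and PPARδ (Ppard) is found in most tissues. Adiponectin, a hormone secreted by adipocytes, signals through AdipoR1 and AdipoR2, which are known to activate AMP-activated kinase and PPARα. Angptl4 encodes a secreted inhibitor of lipoprotein lipase, and Pdk4 a kinase that shuts down pyruvate dehydrogenase when fatty acids are burned. The aorta is surrounded by perivascular fat, part of it brown, which was not measured apart from the wall here.

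Total counts on genes ranged from 14481179 to 19797407 per aorta, at which 3 counts, the limit that a count of 0 allows for counting error, equalled 0.140 to 0.221 CPM (counts scaled to a common library size by edgeR's TMM method). Fam3a itself stood at 24.4 ± 4.27 CPM (SD, n = 6) under Ad-sham and at 23.97 ± 4.64 CPM (SD, n = 7) under Ad-FAM3A. Its log2 fold change of -0.03 (adjusted p = 0.971 by edgeR's quasi-likelihood test) lay near 0, so the counts did not show the delivered gene, and each direction below is between groups named by their labels. Of the cardiac muscle markers, 5 of 8 were tested, and they were high in Ad-sham1, Ad-sham3 and Ad-FAM3A6, at a mean log2 CPM of 4.04 to 5.56 against 1.73 to 2.79 in the other 10. Myh6 had 103, 29.4 and 78.6 CPM in those 3 aortas, and the atrial gene Myl7 18.1, 5.995 and 14.98 CPM, whereas the ventricular gene Myl2 had no counts in any of them. Results are therefore also given without these 3 aortas, a choice made after seeing the data. Markers of smooth muscle had counts in every aorta, at a mean log2 CPM of 6.76 to 9.76, as fits the labelled tissue. Tagln among them had only 7.95 to 50.6 CPM. In Ad-sham1, Ad-sham3 and Ad-FAM3A6 the smooth muscle level lay below that of adipocyte markers (7.22 against 8.39, 7.96 against 8.21 and 6.76 against 7.11). In the other 10 it lay above.

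The levels of the 10 genes per length were compared first, as RPKM (CPM per kilobase of the gene model). Pdk4 was the highest, with 257 ± 102 RPKM (SD, n = 13), and it lay above Angptl4 in 13 of 13 aortas. Angptl4 (66.8 ± 25.9 RPKM) and Adipor2 (65.2 ± 29.0 RPKM) followed. Pparg (36.8 ± 16.9 RPKM) and Adipor1 (30.1 ± 4.27 RPKM) came next, ahead of Rxra (21.3 ± 3.99 RPKM) and Ppara (9.43 ± 3.95 RPKM). The lowest levels were those of Ppargc1b (4.82 ± 2.07 RPKM), Ppard (4.32 ± 0.582 RPKM) and Rxrg (4.12 ± 1.54 RPKM). By mean RPKM, Pparg was the highest of the 3 PPARs and Rxra the higher of the 2 partners.

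**Figure D1:**
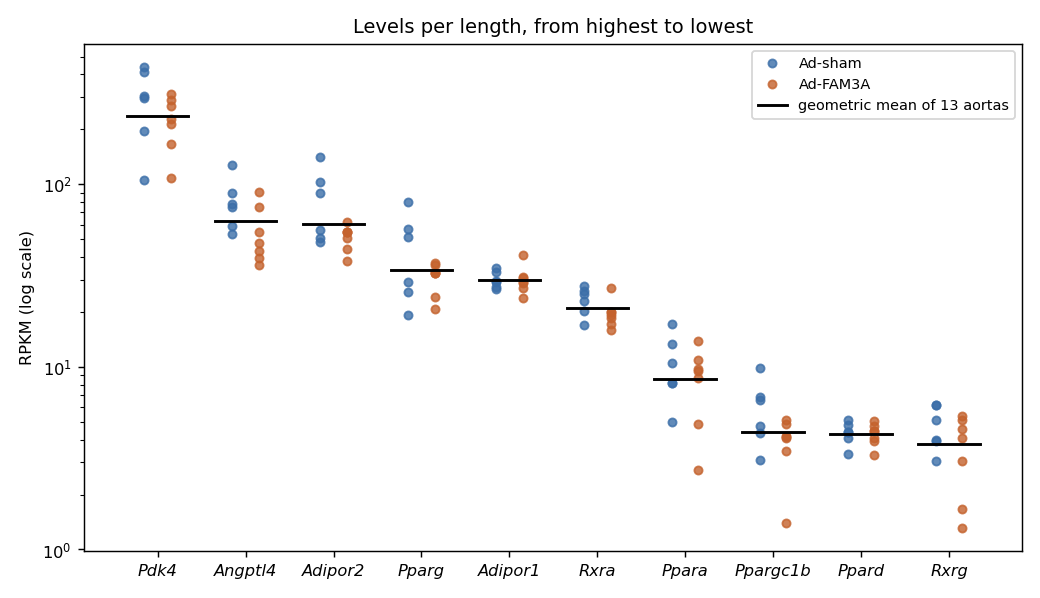
Levels of the 10 genes in RPKM on a log axis, ordered by their mean. Each point is 1 aorta, blue for Ad-sham and orange for Ad-FAM3A, and each bar is the geometric mean of the 13 aortas. Pdk4 stands highest, and the points of Ppargc1b, Ppard and Rxrg overlap at the low end.

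Neighbours in this order were compared within each aorta by two-sided exact sign-flip permutation tests with Benjamini-Hochberg adjustment over 9 pairs. Of these, 5 pairs were separated, each in 13 of 13 aortas with p = 0.000244, the smallest this exact permutation test can give, and an adjusted p of 0.000439. They were Pdk4 over Angptl4 (mean log2 difference 1.92 ± 0.610 SD), Adipor2 over Pparg (0.84 ± 0.387), Adipor1 over Rxra (0.51 ± 0.282), Rxra over Ppara (1.29 ± 0.733) and Ppara over Ppargc1b (0.95 ± 0.423). The order of Angptl4 and Adipor2 (mean log2 difference 0.04 ± 0.424 SD, adjusted p = 0.801), of Pparg and Adipor1 (0.18 ± 0.549, adjusted p = 0.395), of Ppargc1b and Ppard (0.04 ± 0.693, adjusted p = 0.839) and of Ppard and Rxrg (0.18 ± 0.777, adjusted p = 0.544) was not separated by the exact permutation test.

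Next, the groups were compared, beginning with the receptors. Pparg, on chromosome 6 of GRCm38 from 115360951 to 115490399, ranged from 56.6 to 236 CPM in Ad-sham aortas, with a median of 119 CPM. It ranged from 61.6 to 109 CPM in aortas labelled Ad-FAM3A, with a median of 96.3 CPM. Below the Ad-sham median lay all 7 of them, yet 3 Ad-sham aortas (Ad-sham4, Ad-sham5 and Ad-sham6, at 56.6 to 85.5 CPM) lay within or below their range, and the spread was carried by Ad-sham1, Ad-sham2 and Ad-sham3 at 152 to 236 CPM. For Pparg the log2 fold change was -0.50 ± 0.29 (SE, adjusted p = 0.811 by edgeR's quasi-likelihood test), and it was -0.25 without Ad-sham1 and -0.0703 without the 3 aortas with cardiac muscle markers.

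Ppara, on chromosome 15 from 85734983 to 85802819, ranged from 19.2 to 65.9 CPM with a median of 36.0 CPM in Ad-sham aortas, and from 10.5 to 52.9 CPM with a median of 36.4 CPM in aortas labelled Ad-FAM3A. The medians of Ppara were thus nearly equal, and its log2 fold change of -0.27 was smaller than its standard error of 0.34. That value was -0.0695 without Ad-sham3, -0.10 without Ad-FAM3A3, -0.16 without Ad-FAM3A1, -0.41 without Ad-sham5 and 0.0735 without the 3 aortas with cardiac muscle markers. Ppard, on chromosome 17 from 28232700 to 28301474, ranged from 25.0 to 38.7 CPM (median 33.004 CPM) and from 24.7 to 38.1 CPM (median 33.5 CPM), with a log2 fold change of -0.02 ± 0.13 SE. Ppard levels were the most alike of the 3 receptors across aortas, its highest aorta being 1.57 times its lowest against 4.18 times for Pparg and 6.27 times for Ppara.

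The sequence before a gene's start is where PPAR and retinoid X receptors can bind, at copies of the half-site AGGTCA. RefSeq windows of 300 bases (250 before and 50 after a gene start, GRCm38.p6) were at hand for 8 of the 10 genes, 13 windows in all, and Ppargc1b and Angptl4 were not among them. The half-site, on either strand, was in 4 of the 13 windows, in Pparg, Rxra and Rxrg, and in 5340 of all 32851 windows (16.3%). The paired element, a half-site followed by 1 base and another half-site, was in 0 of the 13 and in 13 of all 32851 windows (0.0396%). The windows of 2 Pparg starts are shown because each holds 1 half-site, in capitals, beginning at position -28 (chr6:115360894-115361193, plus strand) and at position -9 (chr6:115362099-115362398, plus strand), where 0 is the first base of the transcript. A match of these letters is a description and not a binding site.
Pparg start 1: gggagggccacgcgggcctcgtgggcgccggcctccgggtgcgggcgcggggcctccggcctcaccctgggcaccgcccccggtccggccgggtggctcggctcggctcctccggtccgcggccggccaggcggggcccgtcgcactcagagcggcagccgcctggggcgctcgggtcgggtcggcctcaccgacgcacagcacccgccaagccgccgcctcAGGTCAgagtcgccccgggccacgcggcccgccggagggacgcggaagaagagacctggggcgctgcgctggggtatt
Pparg start 2: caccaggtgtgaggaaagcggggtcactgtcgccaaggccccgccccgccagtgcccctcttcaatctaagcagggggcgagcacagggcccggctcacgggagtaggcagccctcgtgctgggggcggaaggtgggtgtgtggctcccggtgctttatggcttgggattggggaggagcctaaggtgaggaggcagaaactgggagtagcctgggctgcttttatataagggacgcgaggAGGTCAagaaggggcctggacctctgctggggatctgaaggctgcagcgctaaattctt

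The partners and the coactivator also had lower means in aortas labelled Ad-FAM3A. Rxra, the common partner, on chromosome 2 from 27676440 to 27762957, ranged from 92.6 to 151 CPM (median 131 CPM) in Ad-sham aortas and from 86.9 to 148 CPM (median 106 CPM) in aortas labelled Ad-FAM3A. The difference was -0.23 ± 0.15 SE on the log2 scale, and 6 of the 7 lay below the Ad-sham median. Rxrg, a partner with a narrower tissue range, on chromosome 1 from 167598384 to 167639623, had only 41 to 226 counts per aorta. It ranged from 6.99 to 14.3 CPM (median 10.5 CPM) and from 3.02 to 12.3 CPM (median 9.35 CPM), the 2 lowest aortas being Ad-FAM3A4 and Ad-FAM3A5, and the log2 difference between groups was -0.40 ± 0.33 SE, which became -0.24 without Ad-FAM3A5 and -0.17 without the 3 aortas with cardiac muscle markers.

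Ppargc1b, a coactivator known to drive mitochondrial genes, on chromosome 18 from 61298136 to 61400431, ranged from 12.3 to 39.6 CPM (median 22.6 CPM) in Ad-sham aortas. In aortas labelled Ad-FAM3A it ranged from 5.57 to 20.4 CPM (median 16.5 CPM), and all 7 lay below the Ad-sham median. This gave a log2 fold change of -0.61 ± 0.30 SE (adjusted p = 0.810 by edgeR's quasi-likelihood test), which was -0.40 without Ad-sham3 and -0.45 without Ad-FAM3A3, the aorta with the lowest level, and -0.35 without the 3 aortas with cardiac muscle markers. Its paralog Ppargc1a averaged 19.97 ± 6.33 CPM (SD, n = 6) under Ad-sham against 15.2 ± 4.32 CPM (SD, n = 7), which is -0.39 as log2 fold change (adjusted p = 0.812).

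The adiponectin receptors were compared next. Adipor2, on chromosome 6 from 119353150 to 119417704, ranged from 289 to 845 CPM (median 435 CPM) in Ad-sham aortas and from 227 to 370 CPM (median 326 CPM) in aortas labelled Ad-FAM3A. Again Ad-sham1, Ad-sham2 and Ad-sham3 (536 to 845 CPM) lay above every other aorta, whereas the other 3 Ad-sham aortas (289 to 334 CPM) lay inside the Ad-FAM3A range. Its log2 fold change of -0.67 (standard error 0.25) was the lowest of the 10 genes, with an unadjusted p of 0.0181 and an adjusted p of 0.810 by edgeR's quasi-likelihood test, and a two-sided exact permutation test on log2 CPM gave p = 0.0629 unadjusted. The authors' mean FPKM of Adipor2, deposited per group, was 81.0 for Ad-sham and 51.3 for Ad-FAM3A. Without Ad-sham3 the log2 fold change was -0.44, and without the 3 aortas with cardiac muscle markers it was -0.20 (unadjusted p = 0.367 by edgeR's quasi-likelihood test).

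Adipor1, on chromosome 1 from 134415378 to 134433351, ranged from 134 to 174 CPM (median 148 CPM) in Ad-sham aortas and from 119 to 206 CPM (median 146 CPM) in aortas labelled Ad-FAM3A. The groups lay on top of each other, the log2 fold change being 0.01 ± 0.13 SE. The ratio of the receptors within an aorta, a comparison added after the levels had been seen, does not depend on library scaling. The log2 ratio of Adipor2 to Adipor1 RPKM averaged 1.33 ± 0.536 (SD, n = 6) under Ad-sham and 0.77 ± 0.272 (SD, n = 7) under Ad-FAM3A. The difference of -0.56 had a two-sided exact permutation p of 0.0396, which was 0.238 after Benjamini-Hochberg adjustment over 6 pairs of genes, and it was -0.27 without the 3 aortas with cardiac muscle markers. For the other 5 pairs (Pparg to Ppara, Pparg to Ppard, Ppara to Ppard, Rxrg to Rxra and Angptl4 to Pdk4) the difference in log2 ratio lay between -0.33 and -0.03, with adjusted p from 0.617 to 0.931 by the same exact permutation test. Single aortas decided much of these differences, that of Pparg to Ppard being -0.0425 without Ad-sham1, that of Ppara to Ppard -0.0399 without Ad-FAM3A3 and that of Rxrg to Rxra -0.0609 without Ad-FAM3A4.

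The start windows of both adiponectin receptors are shown because each holds 1 copy of the forkhead motif TGTTTAC or its reverse complement, in capitals, which FOXO factors can bind. That motif was in 2 of the 13 windows, both of them here, and in 1199 of all 32851 windows (3.65%). In Adipor1 (chr1:134415414-134415713, plus strand) it begins at position 36 on the other strand, and in Adipor2 (chr6:119388685-119388984, minus strand) at position -172 on the same strand. Neither window holds the half-site AGGTCA, which says only that these letters are absent from these 300 bases.
Adipor1 start 2: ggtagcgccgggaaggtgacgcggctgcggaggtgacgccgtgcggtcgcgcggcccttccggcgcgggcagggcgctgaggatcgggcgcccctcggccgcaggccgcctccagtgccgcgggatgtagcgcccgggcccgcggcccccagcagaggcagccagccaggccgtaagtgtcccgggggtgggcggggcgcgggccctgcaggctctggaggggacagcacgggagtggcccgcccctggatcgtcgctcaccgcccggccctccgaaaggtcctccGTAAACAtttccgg
Adipor2 start: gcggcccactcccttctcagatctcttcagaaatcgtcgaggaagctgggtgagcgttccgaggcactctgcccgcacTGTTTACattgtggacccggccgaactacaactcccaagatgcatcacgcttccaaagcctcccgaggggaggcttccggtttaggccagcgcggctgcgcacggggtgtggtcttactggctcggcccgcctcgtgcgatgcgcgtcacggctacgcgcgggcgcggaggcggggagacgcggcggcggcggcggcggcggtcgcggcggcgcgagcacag

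Both targets had lower means in aortas labelled Ad-FAM3A as well. Angptl4, on chromosome 17 from 33773750 to 33781575, ranged from 175 to 419 CPM (median 252 CPM) in Ad-sham aortas and from 119 to 296 CPM (median 156 CPM) in aortas labelled Ad-FAM3A, where 6 of 7 lay below the Ad-sham median and Ad-FAM3A2, at 296 CPM, above it. For Angptl4 the log2 fold change was -0.55 ± 0.25 SE (unadjusted p = 0.0487, adjusted p = 0.810 by edgeR's quasi-likelihood test), and it was -0.37 without Ad-sham3 and -0.27 without the 3 aortas with cardiac muscle markers. Pdk4, on chromosome 6 from 5483351 to 5496309, ranged from 371 to 1538 CPM (median 1058 CPM) and from 381 to 1101 CPM (median 797 CPM). The lowest Pdk4 levels of the 2 groups (Ad-sham5 and Ad-FAM3A1) were nearly equal, and the log2 fold change of -0.36 ± 0.32 SE was about the size of its error. It was -0.23 without Ad-sham1 and 0.0407 without the 3 aortas with cardiac muscle markers.

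**Figure D2:**
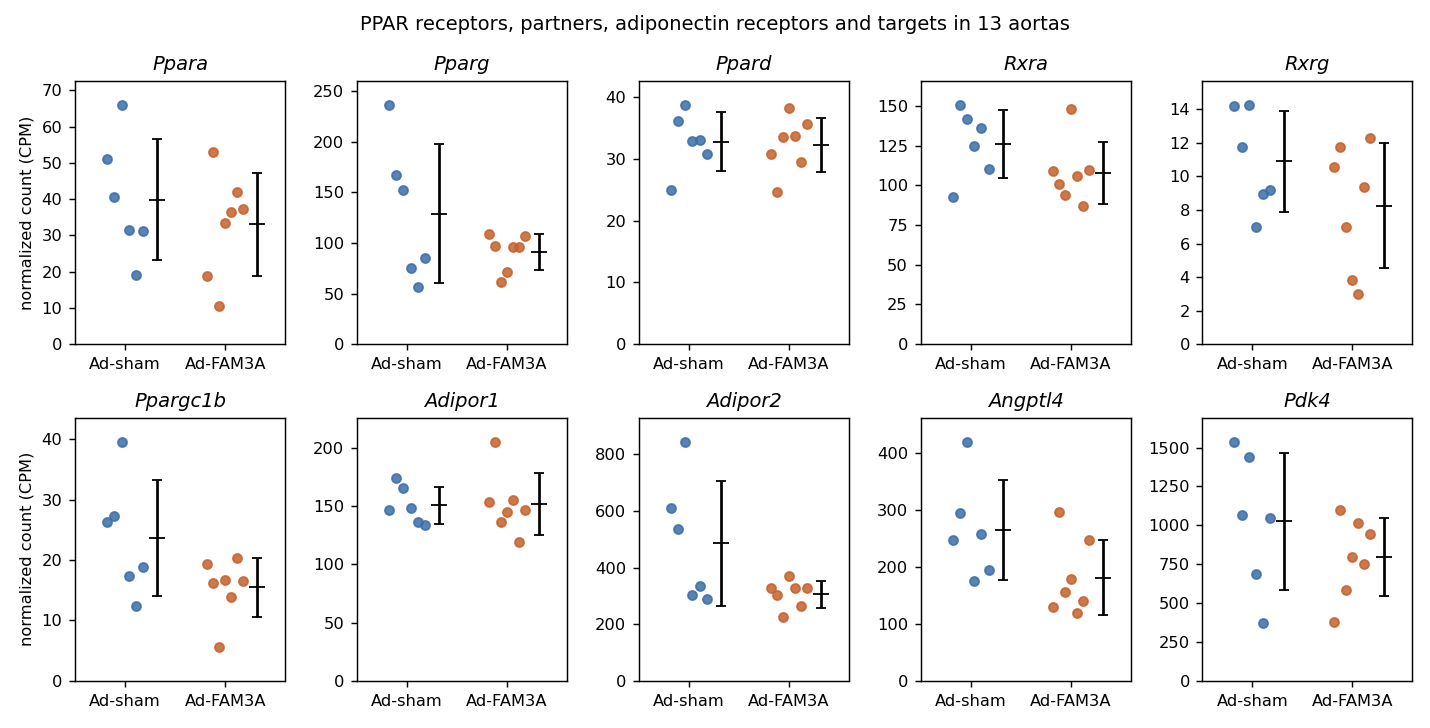
Normalized counts (CPM, each axis from 0) of the 10 genes in 6 Ad-sham (blue) and 7 Ad-FAM3A (orange) aortas, in replicate order within a group, with the mean and SD of each group in black. The groups overlap for every gene, and Pparg and Adipor2 show 3 high Ad-sham aortas.

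Across the 10 genes, 0 were called at an adjusted p under 0.05 by edgeR's quasi-likelihood test (background 0%, 0 of 15811 genes), and 2, Adipor2 and Angptl4, had an unadjusted p under 0.05, both lower (background 2.93% lower and 5.91% in either direction). DESeq2 and limma-voom also called 0 of the 10, each with 2 at an unadjusted p under 0.05. The log2 fold change was below 0 for 9 of 10 genes (background 49.6%), with a median of -0.38 against 0.0032 over all genes tested. The 2 groups did not overlap for 0 of 10 genes (background 0.0949%). Without the 3 aortas with cardiac muscle markers, 7 of 10 were below 0 with a median of -0.12, and 0 had an unadjusted p under 0.05. In that fit 7711 of 15774 genes were below 0 and 180 were lower at that p. Without Ad-sham3 alone, 8 of the 10 were below 0 and 0 had an unadjusted p under 0.05 (7957 and 229 of 15811 genes). Since several of these genes share the same high Ad-sham aortas, the 10 are not independent observations of the groups.

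The genes differed in how far they spread over the 13 aortas. Adipor1, Ppard and Rxra were among the steadiest genes, with an SD of log2 CPM larger than that of 5.03%, 6.19% and 16.8% of the genes tested. The other 7 were more variable than most, from Adipor2 (58.0%) and Angptl4 (58.9%) to Rxrg (72.4%) and Ppara (75.4%). The highest level of Ppargc1b was 7.10 times its lowest, a ratio that rests on Ad-FAM3A3 at 5.57 CPM, since the next lowest aorta, Ad-sham5, had 12.3 CPM. Within groups, the SD of log2 CPM of Adipor2 was 0.633 in Ad-sham and 0.235 in Ad-FAM3A aortas, and that of Pparg 0.790 and 0.311, a difference in spread that was not tested.

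The levels of cell type markers were set beside these genes. All 10 adipocyte markers were tested, and all had a log2 fold change below 0, with none called (49.6% of all genes were below 0). Every tested marker was also below 0 in the lists of brown adipocytes (7 of 7), fibroblasts (8 of 8), sympathetic neurons (7 of 7), Schwann cells (6 of 6) and kidney (4 of 4), and above 0 in those of smooth muscle (8 of 8), B cells (5 of 5), T cells (6 of 6) and liver (6 of 6). In some lists few aortas stood apart. Summed B cell markers stood at 653 and 246 CPM in Ad-FAM3A6 and Ad-FAM3A7, and at most 45.1 CPM elsewhere. Liver markers were highest in Ad-FAM3A1 (377 CPM), and T cell markers in Ad-FAM3A6 (375 CPM) and Ad-sham4 (156 CPM). Kidney markers reached 146 to 650 CPM in Ad-sham3, Ad-sham5, Ad-sham6 and Ad-FAM3A3, and at most 34.1 CPM elsewhere. The sympathetic neuron level (mean log2 CPM) differed by -0.099 (exact permutation p = 0.952). Of these other lists, the brown adipocyte and smooth muscle levels were also related to the 10 genes and fitted as covariates, and the part of the rest in the results was not tested. The adipocyte markers' mean log2 CPM was 7.71 ± 0.702 (SD, n = 6, range 6.90 to 8.41) under Ad-sham and 7.17 ± 0.524 (SD, n = 7, range 6.48 to 7.98) under Ad-FAM3A. The difference of -0.53 had a two-sided exact permutation p of 0.146 and an adjusted p of 0.751 over 14 marker lists. It was -0.23 (7.41 against 7.18, exact permutation p = 0.552) without the 3 aortas with cardiac muscle markers, and lay between -0.69 and -0.39 when 1 aorta was left out. The highest levels were those of Ad-sham1, Ad-sham2 and Ad-sham3, the aortas in which Pparg and Adipor2 were highest. Adipoq, the gene of adiponectin and the ligand of both receptors, averaged 547 ± 238 CPM (SD, n = 6) under Ad-sham against 371 ± 138 CPM (SD, n = 7), which is -0.56 as log2 fold change (adjusted p = 0.811 by edgeR's quasi-likelihood test). Of 7 brown adipocyte markers, all were below 0, and Ucp1, the uncoupling protein of brown fat, ranged from 230 to 2193 CPM over the 13 aortas. No adipocyte marker and no brown adipocyte marker was at 0 in any aorta.

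The relation of each gene to 4 marker lists (adipocyte, brown adipocyte, smooth muscle and cardiac muscle) was tested over aortas, 40 relations in all, with permutation tests of 100000 resamples and Benjamini-Hochberg adjustment. With the adipocyte level, 4 genes had an adjusted p under 0.05. Pparg had a Pearson r of 0.81 (permutation p = 0.00101, adjusted p = 0.00880) and a Spearman rho of 0.80 (permutation p = 0.00188). Adipor2 had an r of 0.79 (permutation p = 0.000910, adjusted p = 0.00880) and a rho of 0.66 (permutation p = 0.0166). Rxrg had an r of 0.75 (permutation p = 0.00250, adjusted p = 0.0143) and a rho of 0.86 (permutation p = 0.000380). Ppargc1b had an r of 0.74 (permutation p = 0.00131, adjusted p = 0.00880) and a rho of 0.66 (permutation p = 0.0155).

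Angptl4 followed with an r of 0.63 and an adjusted permutation p of 0.0918, so that 5 of 10 genes reached an r of 0.5 (background 13.9% of the genes tested). Ppara (r = 0.46), Adipor1 (0.42), Pdk4 (0.31), Rxra (0.27) and Ppard (-0.10) had adjusted permutation p values from 0.260 to 0.843. Without Ad-sham1 and Ad-sham2, the 2 aortas farthest from the median adipocyte level, r was 0.65 for Pparg, 0.68 for Adipor2, 0.73 for Rxrg and 0.70 for Ppargc1b. Within groups it was 0.89 in Ad-sham and 0.62 in Ad-FAM3A aortas for Pparg, and 0.90 and 0.37 for Adipor2. Without Ad-sham3 the number of genes with an adjusted permutation p under 0.05 was 2, and without the 3 aortas with cardiac muscle markers it was 0, with r from 0.67 to 0.72 for the same 4 genes over 10 aortas. By Spearman's rho it was 2, Pparg and Rxrg. The marker levels and the genes come from the same libraries and scaling.

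By the gap that defines separate sets of aortas (over 0.3 of the range), the levels of 5 genes themselves set 1 or 2 aortas apart, so that their r over 13 aortas spans such sets. The relations of these 5 genes to the adipocyte and brown adipocyte levels were therefore also tested within the larger set, 10 relations added after seeing the data. For Rxrg, without Ad-FAM3A4 and Ad-FAM3A5, r with the adipocyte level was 0.83 (adjusted permutation p = 0.00875). For Ppargc1b, without Ad-FAM3A3, it was 0.75 (adjusted permutation p = 0.0143). Ppara without Ad-FAM3A3 (0.30), Ppard without Ad-sham1 and Ad-FAM3A2 (0.35) and Adipor1 without Ad-FAM3A2 (0.56) had adjusted permutation p values from 0.0806 to 0.344. With the brown adipocyte level, r in the same sets was 0.85 for Ppargc1b, 0.71 for Rxrg, 0.68 for Adipor1 and 0.64 for Ppara, with adjusted permutation p from 0.0036 to 0.0426, and 0.43 for Ppard with 0.233. Over all 13 aortas it was 0.47 for Rxrg (adjusted permutation p = 0.253) and 0.60 for Adipor1 (adjusted permutation p = 0.108).

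**Figure D3:**
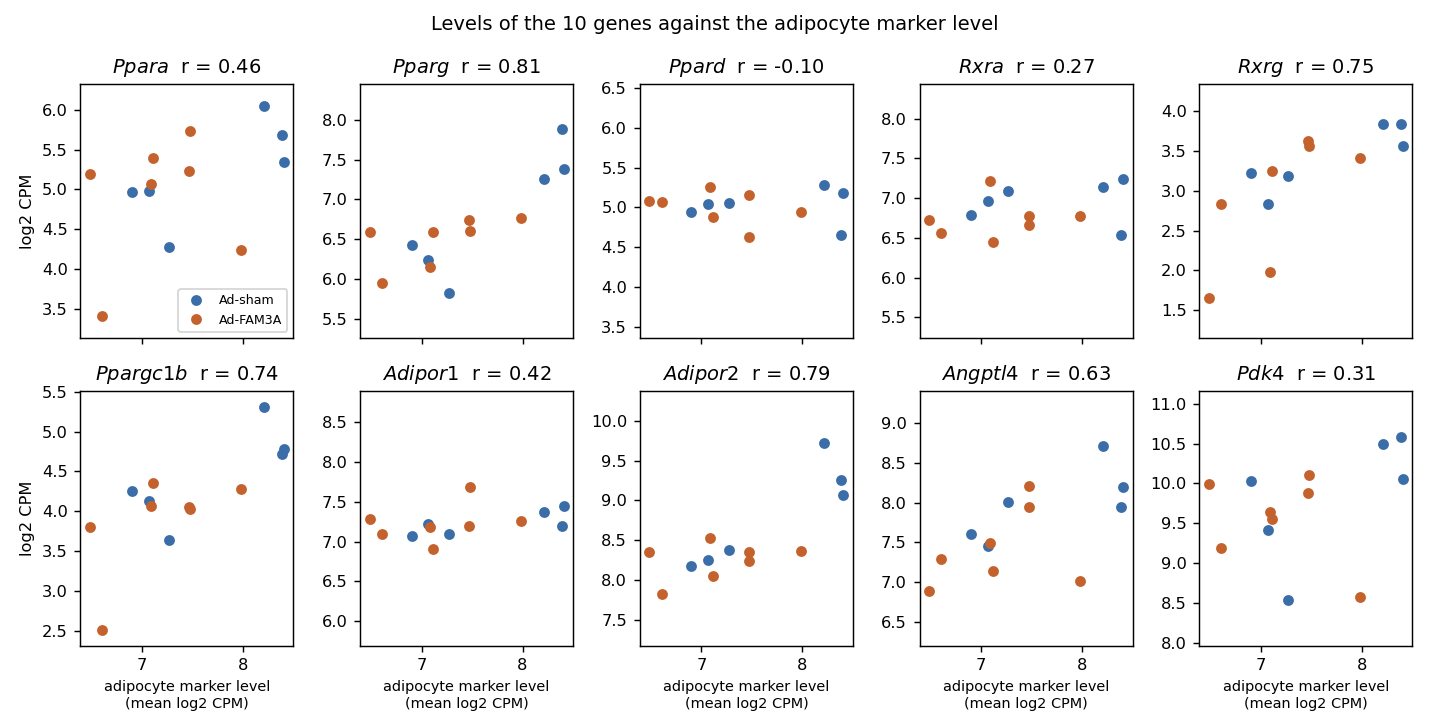
Log2 CPM of each of the 10 genes (each vertical axis spans the same log2 range) against the mean log2 CPM of 10 adipocyte markers in 6 Ad-sham (blue) and 7 Ad-FAM3A (orange) aortas, with Pearson's r. Pparg, Adipor2, Rxrg and Ppargc1b are higher where the marker level is higher, with r from 0.74 to 0.81, and Ppard is not, with r of -0.10.

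With the brown adipocyte level, Pparg (r = 0.84), Adipor2 (0.80) and Ppargc1b (0.79) had an adjusted permutation p of 0.00880 each. Pdk4 (r = 0.68) and Ppara (0.67) had an adjusted permutation p of 0.0503 each, where r with the adipocyte level was 0.31 and 0.46, a difference that was not tested. Without Ad-sham2 and Ad-sham3, farthest from the median brown adipocyte level, r was 0.79 for Pparg, 0.63 for Adipor2 and 0.67 for Ppargc1b, and over all 13 aortas their Spearman rho was 0.76, 0.56 and 0.76 (adjusted permutation p = 0.0357, 0.161 and 0.0357). By rho, Pdk4 was related to the brown adipocyte level too (rho = 0.74, adjusted permutation p = 0.0443), and Adipor2 was not. Within Ad-sham and within Ad-FAM3A aortas, r with this level was 0.88 and 0.11 for Pdk4 and 0.91 and 0.40 for Pparg. It was 0.81 and 0.48 for Adipor2, and 0.94 and 0.57 for Ppargc1b. None of the 10 genes was related to the smooth muscle level at an adjusted permutation p under 0.05, Rxrg (r = -0.55) and Rxra (r = 0.54) having adjusted p of 0.156 and 0.171. By the cardiac muscle level the aortas fell into separate sets of 10 and 3, so it was examined within the 10 only, where r lay between -0.24 and 0.40 and the smallest adjusted permutation p was 0.472.

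Fitting the adipocyte marker level as a covariate in the same edgeR model moved most differences towards 0. The log2 fold change of Pparg became 0.02 (standard error 0.23), that of Ppara 0.05 (0.37) and that of Rxrg -0.06 (0.28). Adipor2 became -0.27 (0.22), Angptl4 -0.28 (0.25), Ppargc1b -0.24 (0.26) and Pdk4 -0.16 (0.38). Rxra, at -0.20 (0.17), Ppard, at -0.04 (0.15), and Adipor1, at 0.09 (0.14), changed little. With this covariate 0 of 10 were called, the adjusted p by edgeR's quasi-likelihood test being 0.999 for each, and 0 had an unadjusted p under 0.05. The part of the adipocyte content in the group differences cannot be told apart from an effect on these genes within adipocytes.

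**Figure D4:**
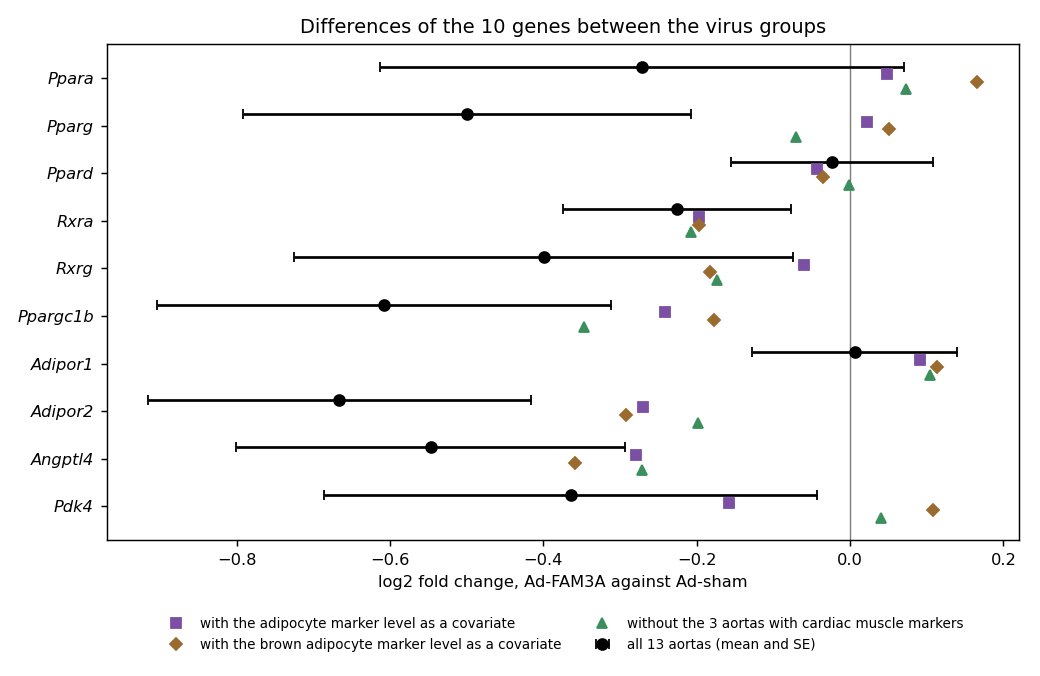
Log2 fold changes of the 10 genes between aortas labelled Ad-FAM3A and Ad-sham. Black points with SE bars are from all 13 aortas, squares and diamonds from fits with the adipocyte or brown adipocyte marker level as a covariate, and triangles from the 10 aortas left without cardiac muscle markers. Pparg moves from -0.50 to 0.02 with the adipocyte level, whereas Rxra stays between -0.23 and -0.20.

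The other genes of the pathway were described from 9 lists of 148 entries, of which 140 were tested. None was called at an adjusted p under 0.05 by edgeR's quasi-likelihood test, whose smallest adjusted p was 0.810. Of the 140, 100 had a log2 fold change below 0, with a median of -0.26. At an unadjusted p under 0.05, 29 were lower and 2 higher. Single aortas moved such counts, that of adipocyte targets from 11 to 3 without Ad-sham3 and to 14 without Ad-sham5. Over all genes tested, against which the main counts of every list below are to be read, 49.6% were below 0 and 2.93% were lower at an unadjusted p under 0.05. Refits have their own background. Lower at that p were 180 of 15774 genes without the 3 aortas with cardiac muscle markers and 230 of 15811 with the adipocyte level as a covariate. Leaving out 1 aorta gave from 229 of 15811 (without Ad-sham3) to 631 of 15642 (without Ad-FAM3A2). Below 0 in these 4 fits were 7711, 7619, 7957 and 7607 genes.

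Target genes of PPARs mostly had log2 fold changes below 0. Of 17 adipocyte targets, 17 were below 0 with a median of -0.73, and 11 had an unadjusted p under 0.05 (2.93% of all genes were lower at that p). Among those with the smallest p were Aqp7, a glycerol channel (log2 fold change -0.69 ± 0.22 SE), and Lipe, hormone-sensitive lipase (-0.85 ± 0.29). Of these 17 genes, 6 are also adipocyte or brown adipocyte markers. Of 23 fatty acid oxidation targets, 22 were below 0 with a median of -0.61, and 10 had an unadjusted p under 0.05 (2.93% over all genes). Ucp3, a mitochondrial uncoupling protein (-1.06 ± 0.33 SE), and Pex11a, a peroxisome membrane protein (-0.80 ± 0.27), were among those with the smallest p. Without the 3 aortas with cardiac muscle markers these lists still had 17 of 17 and 22 of 23 below 0, with medians of -0.40 and -0.22, but 0 and 1 genes at an unadjusted p under 0.05, and without Ad-sham3 alone 3 and 4 genes had one, the medians being -0.59 and -0.41. With the adipocyte level as a covariate 15 of 17 and 17 of 23 were below 0, with medians of -0.27 and -0.24 and with 2 and 4 genes at an unadjusted p under 0.05. Plin1, Cidec, Lipe and Retn are among both the 17 targets and the markers of this covariate. For them a shift towards 0 is partly built in.

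Lipid binding and uptake targets had 12 of 16 below 0 with a median of -0.42, and 5 at an unadjusted p under 0.05. The fatty acid transporter Slc27a1 (log2 fold change -0.90 ± 0.25 SE), the acyl-CoA synthetases Acsl1 (-0.80 ± 0.22) and Acsl5 (-0.89 ± 0.33) had the smallest p. The median of these 16 was -0.17, with 2 genes at an unadjusted p under 0.05, without the 3 aortas with cardiac muscle markers, and -0.11 with the adipocyte level as a covariate, and 3 genes had such a p without Ad-sham1 or without Ad-sham3. Genes of pyruvate dehydrogenase, its kinases and phosphatases, the pyruvate carrier and lactate dehydrogenase were below 0 in 11 of 13 cases, with a median of -0.54. Among them Pdk2, a relative of Pdk4, alone had an unadjusted p under 0.05 (-0.57 ± 0.20). Without the 3 aortas with cardiac muscle markers 8 of these 13 were below 0 with a median of -0.0846, with the adipocyte level as a covariate the median was -0.0944, and with the brown adipocyte level 6 were below 0 with a median of 0.0108. The number at an unadjusted p under 0.05 was 9 without Ad-sham5, 6 without Ad-sham4, 6 without Ad-sham6, 4 without Ad-FAM3A2 and 2 without Ad-FAM3A6, and the median was -0.35 without Ad-sham1. Relatives of Angptl4 were below 0 in 6 of 9 cases with a median of -0.14, and 0 had an unadjusted p under 0.05. Leaving out 1 aorta moved this median between -0.0485 (without Ad-FAM3A6) and -0.20 (without Ad-sham1), and it was -0.0148 with the adipocyte level, -0.0121 with the brown adipocyte level and -0.26 with the smooth muscle level as a covariate.

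Among other receptors and PPAR cofactors, a list of nuclear receptors was below 0 in 13 of 14 cases. Its median was -0.23, with 0 at an unadjusted p under 0.05. Of these nuclear receptors, Rxrb alone is a retinoid X receptor, the partner type of PPARs. With the adipocyte level as a covariate 11 of the 14 were below 0 with a median of -0.0943, and with the brown adipocyte level the median was -0.14. Rxrb, the third retinoid X receptor, had a log2 fold change of -0.25 ± 0.23 SE. Coactivators and corepressors were below 0 in 5 of 15 cases with a median of 0.05, which leaving out 1 aorta moved between 0.0324 (without Ad-FAM3A6) and 0.19 (without Ad-FAM3A2). Among them Pprc1, a relative of Ppargc1b, had a log2 fold change of 0.44 ± 0.16 SE (unadjusted p = 0.0146, adjusted p = 0.810 by edgeR's quasi-likelihood test). Adiponectin signalling genes were below 0 in 11 of 20 cases with a median of -0.06, which turned to 0.0399, with 9 of 20 below 0, without the 3 aortas with cardiac muscle markers. Leaving out 1 aorta moved it between -0.00897 (without Ad-sham2) and -0.10 (without Ad-FAM3A1). There, Paqr9, a member of the adiponectin receptor family, averaged 60.8 ± 31.3 CPM (SD, n = 6) under Ad-sham against 32.6 ± 9.52 CPM (SD, n = 7), with a log2 fold change of -0.90 ± 0.30 SE, and Prkab1, a subunit of AMP-activated kinase, -0.34 ± 0.15 SE. A list of genes induced by glucocorticoids or FOXO factors, which are known to induce Pdk4 too, also holds the genes of these factors. Its genes were below 0 in 3 of 13 cases with a median of 0.17. This median was 0.0189 with the smooth muscle level and 0.0414 with the adipocyte level as a covariate. Leaving out 1 aorta moved it between 0.0896 (without Ad-FAM3A4) and 0.31 (without Ad-sham4). Among them the cochaperone gene Fkbp5 had a log2 fold change of 0.83 ± 0.35 SE (unadjusted p = 0.0304, adjusted p = 0.810 by the same test).

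**Figure D5:**
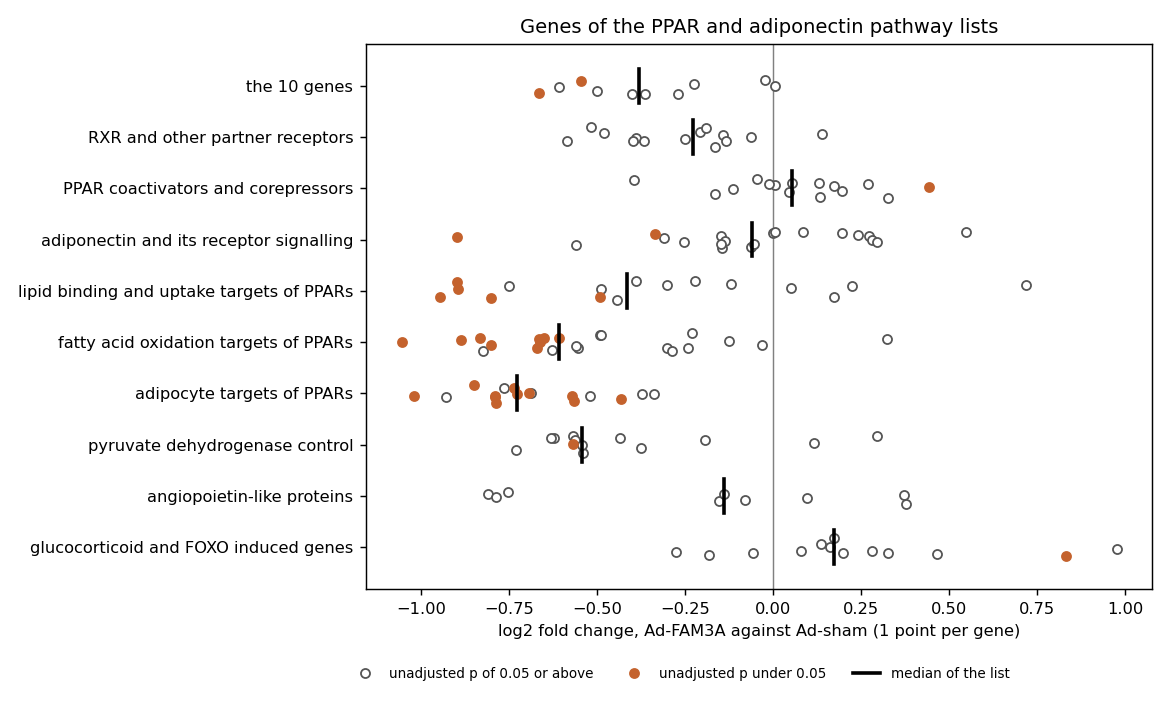
Log2 fold changes between aortas labelled Ad-FAM3A and Ad-sham, with 1 point per tested gene, for the 10 genes and the 9 pathway lists. Filled points have an unadjusted p under 0.05, none passes after adjustment, and black bars are medians, which run from -0.73 for adipocyte targets to 0.17 for glucocorticoid and FOXO induced genes.

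Finally, the genes whose log2 CPM was most like that of each of the 10 were listed by Pearson's r over the 13 aortas, a description chosen for its r and given with no p. Pparg was nearest to Dbt (r = 0.97, rho = 0.93), Dld (r = 0.96, rho = 0.94) and Hspa9 (r = 0.96, rho = 0.95), genes of mitochondrial dehydrogenase complexes and a mitochondrial chaperone. Adipor2 was nearest to Mfn2, a protein of mitochondrial fusion (r = 0.95, rho = 0.87), Fitm2, which acts in lipid droplet formation (r = 0.94, rho = 0.84), and Acacb, acetyl-CoA carboxylase 2 (r = 0.94, rho = 0.71). Ppara was nearest to Slc25a42, a mitochondrial coenzyme A transporter (r = 0.91, rho = 0.89), Gm4285 and Tbc1d20. Pdk4 was nearest to Bnip3, which acts in mitophagy (r = 0.91, rho = 0.95), Crls1, cardiolipin synthase (r = 0.90, rho = 0.88), and Stradb. Ppargc1b was nearest to Sh2b2, an adaptor of insulin signalling (r = 0.94, rho = 0.88), Tbrg4 and Mpzl2.

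Ppard was nearest to Syne2, a nuclear envelope protein (r = 0.90, rho = 0.90), Spen and Golgb1. Rxra was nearest to Rgma (r = 0.96, rho = 0.94), Calcoco1 and Lrp3, and Adipor1 to Atraid (r = 0.94, rho = 0.85), Nkiras2 and Cinp. Rxrg, at low counts, was nearest to Metap1d (r = 0.94, rho = 0.89), Bbof1 and Mc2r, and Angptl4 to Elmod3 (r = 0.94, rho = 0.93), Trmt9b and Osr2. None of the 10 genes was among the 3 nearest of another.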

How the data were processed

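RNA of 13 whole aortas was sequenced, 6 labelled Ad-sham and 7 labelled Ad-FAM3A. After quality trimming, reads were mapped by the authors with Hisat2 (build GRCm38), and FeatureCounts gave the deposited raw counts per gene. The annotation release, strand setting and treatment of reads shared between genes are not given in the sources used here. In GENCODE M21, 0 of the 10 genes share exon bases with another gene. FPKM values, deposited as the mean of each group, are used here for 1 gene.

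Analyses used R 4.3.3, edgeR 4.0.16, limma 3.58.1, DESeq2 1.42.0, Python 3.11.15 and scipy 1.17.1. After TMM scaling and the filterByExpr filter, the main comparison was the quasi-likelihood test of edgeR, adjusted by Benjamini-Hochberg over 15811 genes and tested on simulated data. The standard error of a log2 fold change was derived from its F statistic. Log2 CPM used a prior count of 2. Single values were compared over all 1716 divisions into 6 and 7 by exact permutation, whose smallest p is 0.00117. Separate clusters were a gap above 0.3 of the range, a limit set after seeing the data. The 10 genes, the lists and the rule for named genes (per list the genes at an unadjusted p under 0.05, at most the 3 smallest, and per gene the 3 nearest) were chosen with earlier results of these data known. Some genes that this rule names are not reported here. Nothing states separate cages or batches, so p-values measure the spread between these aortas. Xist was at or below 0.364 CPM and Ddx3y at or above 79.6 CPM in all 13 aortas. Intervals and floors cover counting error only. The alternatives were other scalings, filters and tests, the replicate number as a block, marker levels as covariates and leaving out each aorta.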

Additional observations from a re-analysis of the deposited data

Results flagged for a closer look

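Values of the 10 genes, of 6 ratios between them and of 14 marker lists were examined for a single aorta far from the rest of its group, in 60 sets of 6 or 7 aortas, of which chance alone gives about 3. Ppargc1b had 2.51 log2 CPM in Ad-FAM3A3 against 3.80 to 4.36 in the other 6 aortas of the group. The cardiac muscle marker level (mean log2 CPM) reached 5.03 in Ad-FAM3A6, where the rest of that group had 1.73 to 2.79. The T cell marker level was 4.29 in Ad-sham4 against 0.53 to 1.85 in the other 5. Their part in the group differences was not tested, other than by leaving these aortas out.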

How the results depend on the processing

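None of the 250 recomputed log2 fold changes (10 genes under 25 alternatives) passed an adjusted p of 0.05, and 17 changed sign. With the adipocyte level as a covariate Ppara was 0.0478 and Pparg 0.0220; with the brown adipocyte level Ppara was 0.17, Pparg 0.0503 and Pdk4 0.11; without the 3 aortas with cardiac muscle markers Ppara was 0.0735 and Pdk4 0.0407. Adipor1 was -0.0150 with at least 10 counts in every aorta, -0.00655 by limma-voom and -0.0413 with the smooth muscle level, and ranged from -0.0646 to 0.0541 when 1 aorta was left out, as Ppard did from -0.0960 to 0.0498. Genes with an unadjusted p under 0.05 numbered 1 with DESeq2's size factors, upper quartile or library totals, 0 with either adipocyte level or without the 3 aortas, and 0 to 3 leaving out 1, against 2. Over all genes, from 180 of 15774 (without the 3 aortas) to 644 of 15811 (smooth muscle level) were lower at that p. The number of the 10 genes below 0 ranged from 6 (brown adipocyte level, with 7658 of 15811 over all genes) to 10. The number related to the adipocyte level was 2 by Spearman's rho, 0 without the 3 aortas with cardiac muscle markers, and 2 to 5 when 1 aorta was left out, 2 without Ad-sham3. There r of Pdk4 was -0.0640 without the 3 aortas, and r of Ppard ranged from -0.29 to 0.18 leaving out 1. The log2 ratio difference without the 3 aortas was 0.0796 for Pparg to Ppara and 0.0318 for Pparg to Ppard; leaving out 1 aorta gave -0.19 to 0.0926 for Pparg to Ppara and -0.42 to 0.00025 for Angptl4 to Pdk4. The order of levels kept 5 separated pairs whichever aorta was left out, and library totals cancel within an aorta. DESeq2 called 10 of all genes against 0, none of them among the 10 or the lists. Whether replicate numbers pair the aortas was not settled. Deviations were correlated above 0.1 in 3 of 6 same-number pairs (range -0.33 to 0.45), and pairs of different numbers were not examined. With the replicate block 0 genes were called, 9 of 10 being below 0. With the block, Angptl4 (-0.64, unadjusted p = 0.0302, adjusted p = 0.978 by edgeR's quasi-likelihood test) and Rxrg (-0.63, unadjusted p = 0.0498, adjusted p = 0.978 by the same edgeR test) were the genes under 0.05, not Adipor2 (-0.56, unadjusted p = 0.105, adjusted p = 0.978 by edgeR's quasi-likelihood test). Rxrg had the lowest counts of the 10 genes, 41 to 226, and the part of depth in its spread was not tested.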
